A study of Mus musculus with 27 samples.

Results

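The genes described here are 42 components of the DNA replication machinery, measured in 3T3-L1 cells in the first hours of adipogenic treatment and in cells that overexpress ISL1. They are a list written from general knowledge of replication, but with earlier results of these data known. Each was found by its gene symbol in the platform's annotation. All 42 were measured, out of 19938 genes in all. They comprise 5 genes of origin recognition and licensing, the 6 subunits of the MCM2-7 helicase, 4 genes of helicase activation, 8 polymerase and primase subunits, 6 genes of the sliding clamp and its loader, 3 subunits of the single-strand DNA binding complex, 2 genes of Okazaki fragment processing, 5 of nucleotide supply and 3 of chromatin assembly behind the fork.

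Chromosomes are copied once per cell cycle in S phase. Origins are licensed in G1, when the origin recognition complex, Cdc6 and Cdt1 load the MCM helicase, and are fired in S phase, when Cdc45 and the GINS complex switch the helicase on and the polymerases follow. Many of these genes are transcribed under E2F factors as cells pass from G1 into S, and confluent 3T3-L1 cells given an adipogenic mixture are known to re-enter the cell cycle before they accumulate fat.

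The study asked how gene expression runs through early adipocyte differentiation and which genes respond to ISL1, a LIM homeodomain transcription factor. Total RNA of 3T3-L1 cells, preadipocytes of a mouse fibroblast line, was hybridised to 27 Affymetrix gene arrays, 3 for each of 9 groups. The groups were cells with Flag-ISL1 and cells with the pMIG vector, a retroviral vector, at 0 h and at 48 h, and cells with the pMIG vector at 0.5, 1, 2, 4 and 8 h. Every culture had stood for 2 days at full confluence before treatment, and the 0 h cells were collected untreated. The differentiation medium held 10% fetal calf serum, 350 nM insulin, 0.5 mM isobutylmethylxanthine, 250 nM dexamethasone and 400 nM biotin. Each group's 3 arrays are described as biological replicates. The sources used here do not say whether the transduced cells were a clone or a pool. The 0 h samples, the 0.5 to 8 h samples and the 48 h samples are numbered in separate runs in the deposit. A difference between those sets, if any, cannot be told apart from time.

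Values are log2 intensities, so a difference of 1 is a 2-fold change. Array medians lay between 7.89 and 8.07, and the 3 arrays per group limit the precision of every value. A gene was called higher or lower at an adjusted p under 0.05 in a limma fit over all arrays, and differences are given ± standard error with n = 3 arrays in each group. The intensity of a probe set also depends on its own hybridisation, so no gene's level is set against another gene's. Single arrays are printed mainly for genes picked partly because their groups did not overlap. For those genes the lack of overlap adds no support.

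The construct was checked with the Isl1 probe set. It read 12.64, 12.62 and 12.61 in ISL1 cells at 0 h, against 7.37, 7.47 and 7.17 in vector cells at 0 h. At 48 h it read 7.48, 8.01 and 7.47 on the arrays labelled ISL1, against 12.79, 12.76 and 12.72 on the arrays labelled vector. The Isl1 signal thus followed the labels at 0 h and went against them at 48 h. Groups are kept as labelled, each value from 48 h is given as that of the arrays labelled ISL1 or labelled vector, and the reading with the 48 h labels exchanged is given for the main results.

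In vector cells the replication genes stayed near their 0 h level for 1 h, were lower at 2 and 4 h, and had returned to their starting level in the median by 8 h. Each gene was set against its own mean in vector cells at 0 h, and the median over the 42 genes was taken on each array. That median was 0.04, 0.06 and -0.08 at 0 h, then -0.04, 0.07 and 0.07 at 0.5 h, and -0.10, 0.05 and 0.03 at 1 h. It was -0.30, -0.37 and -0.19 at 2 h, -0.61, -0.34 and -0.45 at 4 h, and -0.04, 0.08 and 0.00 at 8 h. The 2 h and 4 h arrays all lay below every 0 h array, and the 8 h arrays overlapped the 0 h arrays. In RNA from whole cultures, fewer cells in S phase and less RNA of these genes per cell cannot be told apart.

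**Figure D1:**
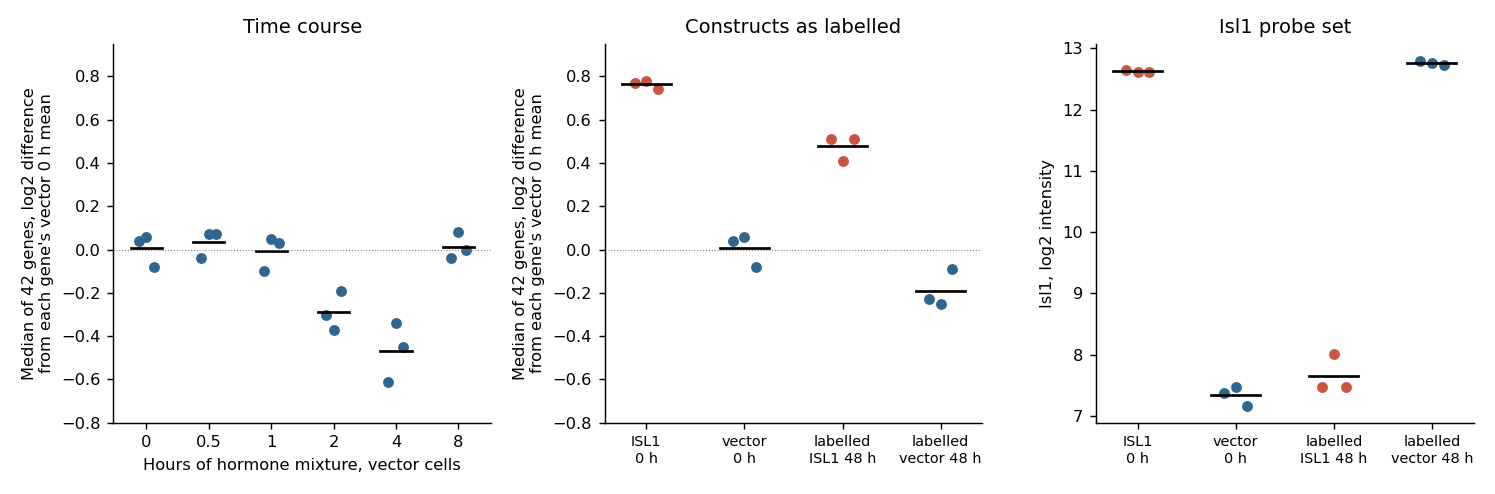
Each point is 1 array and each bar the mean of 3 arrays. The left and middle plots give the median of the 42 genes as a log2 difference from each gene's vector 0 h mean, by hours of mixture and by labelled construct, and the right plot gives the Isl1 log2 intensity. The median dips to -0.47 at 4 h in vector cells, stands at 0.76 in ISL1 cells at 0 h, and at 48 h is higher in the arrays labelled ISL1, in which Isl1 itself is low.

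An F test over the vector groups from 0 to 8 h passed for 39 of the 42 genes, where 51.7% of all genes tested passed. Gmnn, which encodes geminin, an inhibitor of Cdt1, had an adjusted p of 0.0828 in the limma F test, Rpa1 had 0.122 and Tyms had 0.172. The group mean was lowest at 4 h for 24 of the 42 genes and at 2 h for 9. It was highest at 8 h for 18. The median gene ranged over 0.76 on the log2 scale between its lowest and highest group mean.

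At 0.5 h no replication gene passed the limma test, where 0.777% of all genes were called higher and 0.502% lower. The smallest adjusted p among the 42 was 0.431, and 2 had an unadjusted p under 0.05. At 1 h, 2 genes were higher (2.78% of all genes) and 1 was lower (4.29%). In either direction 7.14% of the 42 genes were called, near the 7.07% of all genes. Rrm2, the subunit of ribonucleotide reductase whose level follows the cell cycle, was higher by 0.43 ± 0.0753 and Pcna, the sliding clamp, by 0.28 ± 0.0532. Cdt1, which loads the helicase, read 9.03, 9.36 and 9.28 at 1 h, against 9.63, 9.70 and 9.51 at 0 h, a difference of -0.39 ± 0.0827 (limma adjusted p = 0.00231). The 1 h arrays of Cdt1 all lay under the 0 h arrays, which was so for 11.6% of all genes. The Pcna call was lost when only the 0 h and 1 h arrays were fitted (limma adjusted p = 0.0881).

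At 2 h, 23 genes were lower, where 17.5% of all genes were, and 3 were higher, where 10.9% were. At 4 h, 31 were lower (22.7% of all genes) and 5 higher (17.3%), so that 36 changed, where 40.1% of all genes did. The median of the 42 genes was -0.26 at 2 h and -0.47 at 4 h, against 0.00 and 0.03 over all genes. Of the 23 genes lower at 2 h, 22 were also lower at 4 h, and the exception was Mcm10, a helicase activation factor. Between 2 h and 4 h directly, 18 genes were lower at 4 h (14.2% of all genes) and 4 higher (13.7%). The comparisons share arrays and are not independent of each other.

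**Figure D2:**
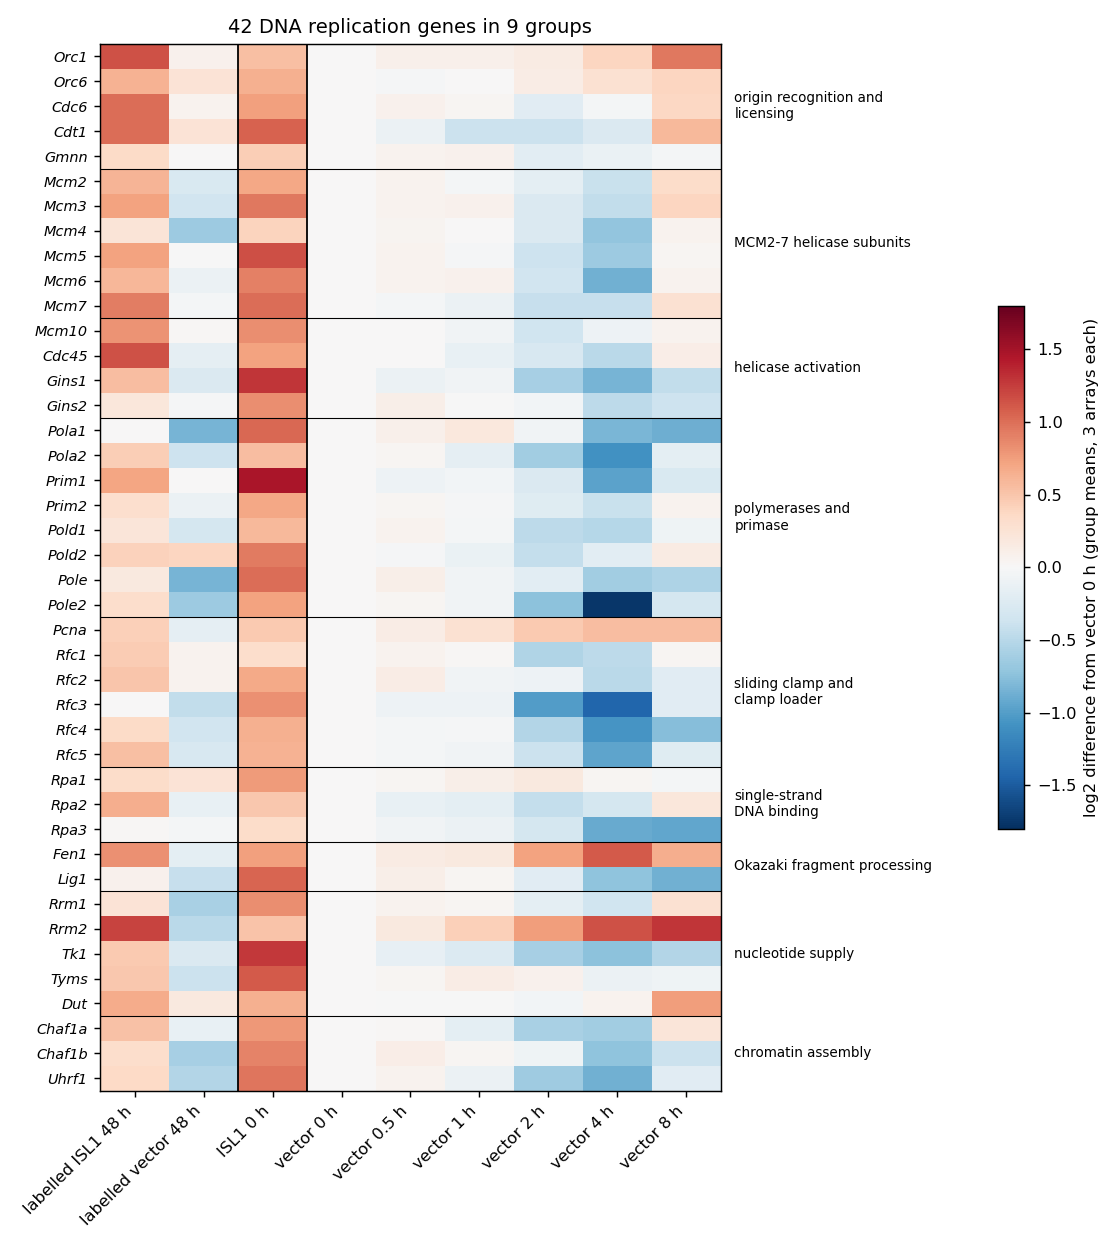
Each row is 1 of the 42 genes, grouped by role, and each column 1 of the 9 groups. Colour gives the log2 difference of the mean of 3 arrays from the vector 0 h mean, from blue (lower) to red (higher). The vector 4 h column is mostly blue, with Rrm2, Fen1, Pcna, Orc1 and Orc6 in red, and red fills the whole ISL1 0 h column.

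The 4 largest falls at 4 h were in polymerase and clamp loader subunits. All 8 polymerase and primase subunits among the 42 genes were lower, with a median of -0.72. Pole2, an accessory subunit of the leading-strand polymerase epsilon, read 7.58, 7.77 and 7.54 at 4 h, against 9.43, 9.42 and 9.29 at 0 h. Its 4 h arrays lay far under all 0 h arrays, and the difference of -1.75 ± 0.109 is a 3.36-fold fall (limma adjusted p = 5.5e-13). Pola2, the regulatory subunit of polymerase alpha, which starts each new strand together with primase, read 9.19, 9.42 and 9.29 at 4 h, against 10.36, 10.45 and 10.35 at 0 h. The groups did not overlap, and Pola2 fell by 1.09 ± 0.082 on the log2 scale (limma adjusted p = 2.45e-11). Pold2, a small subunit of the lagging-strand polymerase delta, differed least of the 8, by -0.19 ± 0.0711.

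Of the clamp loader, the RFC complex that opens Pcna and closes it round DNA, all 5 measured subunits were lower at 4 h. Rfc3 read 8.71, 8.87 and 8.71 at 4 h, against 10.09, 10.26 and 10.22 at 0 h. It fell by 1.43 ± 0.101 on the log2 scale (limma adjusted p = 6.34e-12), and it was already lower at 2 h (limma adjusted p = 1.08e-08). Rfc4 read 10.24, 10.43 and 10.32 at 4 h, against 11.41, 11.44 and 11.33 at 0 h, a difference of -1.06 ± 0.0835. Both subunits had every 4 h array under every 0 h array. Rfc1, Rfc2 and Rfc5 differed by between -0.95 and -0.46.

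The helicase and its activators were lower by less. All 6 MCM2-7 subunits, the ring that unwinds the parental strands, were lower at 4 h, between -0.87 for Mcm6 and -0.40 for Mcm2. Gins1 (-0.84), Cdc45 (-0.50) and Gins2 (-0.47) were lower, and Mcm10 did not pass (-0.10, limma adjusted p = 0.327). Of the single-strand binding complex RPA, Rpa3 was lower by -0.90 and Rpa2 by -0.32, and Rpa1 did not pass (0.04). A second Rpa3 probe set gave -0.63. Uhrf1, which carries DNA methylation to new strands, and Chaf1a and Chaf1b, which load histones on them, were lower by between -0.86 and -0.62.

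The genes that were higher at 4 h belonged to nucleotide supply, Okazaki fragment processing, the clamp and origin recognition. Rrm2 read 11.82, 12.02 and 12.03 at 4 h, against 10.86, 10.86 and 10.73 at 0 h, and rose by 1.14 ± 0.0753 (limma adjusted p = 1.96e-12). Fen1, the nuclease that trims the flap from Okazaki fragments, read 9.88, 10.05 and 9.89 at 4 h, against 8.90, 8.75 and 8.88 at 0 h, and rose by 1.10 ± 0.0926 (limma adjusted p = 1.92e-10). Pcna read 13.18, 13.14 and 13.20 at 4 h, against 12.58, 12.68 and 12.60 at 0 h, and rose by 0.55 ± 0.0532. In all 3 genes every 4 h array lay above every 0 h array, which was so for 26.0% of all genes. The 3 genes were higher from 2 h to 8 h. Orc1, the ATPase of the origin recognition complex, read 7.60, 7.86 and 7.75 at 4 h, against 7.35, 7.43 and 7.30 at 0 h, and rose by 0.38 ± 0.12. Its call was lost without the second 4 h array (0.31, limma adjusted p = 0.0718). Orc6, another subunit of that complex, rose by 0.27 ± 0.0785.

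Within the 42 genes, the MCM2-7, polymerase and primase, clamp loader and chromatin assembly genes were all called lower at 4 h. So were 31 of the 42 genes in all. Of polymerase subunits outside the 42, Pole3 (mean 10.13 at 4 h, against 9.78 at 0 h) and Pole4 (11.56 against 11.33) stood higher. Pold3 (8.28 against 9.37) and Pold4 (9.97 against 10.69) stood lower. Within the 42, opposite directions were found between Pcna and its loader, Fen1 and Lig1, and Rrm2 and Rrm1. Lig1 and Rrm1 are given array by array as the partners of Fen1 and Rrm2, a choice made after their values were seen. Fen1 rose by 1.10 while Lig1, the ligase that seals the nick Fen1 leaves, read 8.62, 8.62 and 8.69 at 4 h, against 9.32, 9.42 and 9.34 at 0 h, a difference of -0.71 ± 0.0743. Rrm2 rose by 1.14 while Rrm1, the large subunit of the same reductase, read 11.28, 11.42 and 11.37 at 4 h, against 11.74, 11.77 and 11.66 at 0 h, a difference of -0.36 ± 0.0582. The Lig1 and Rrm1 arrays at 4 h all lay under those at 0 h. Tk1, the thymidine salvage kinase, was lower by -0.74 (-0.90 by a second probe set), and Tyms (-0.12) and Dut (0.06), which make and protect the thymidylate pool, did not pass.

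**Figure D3:**
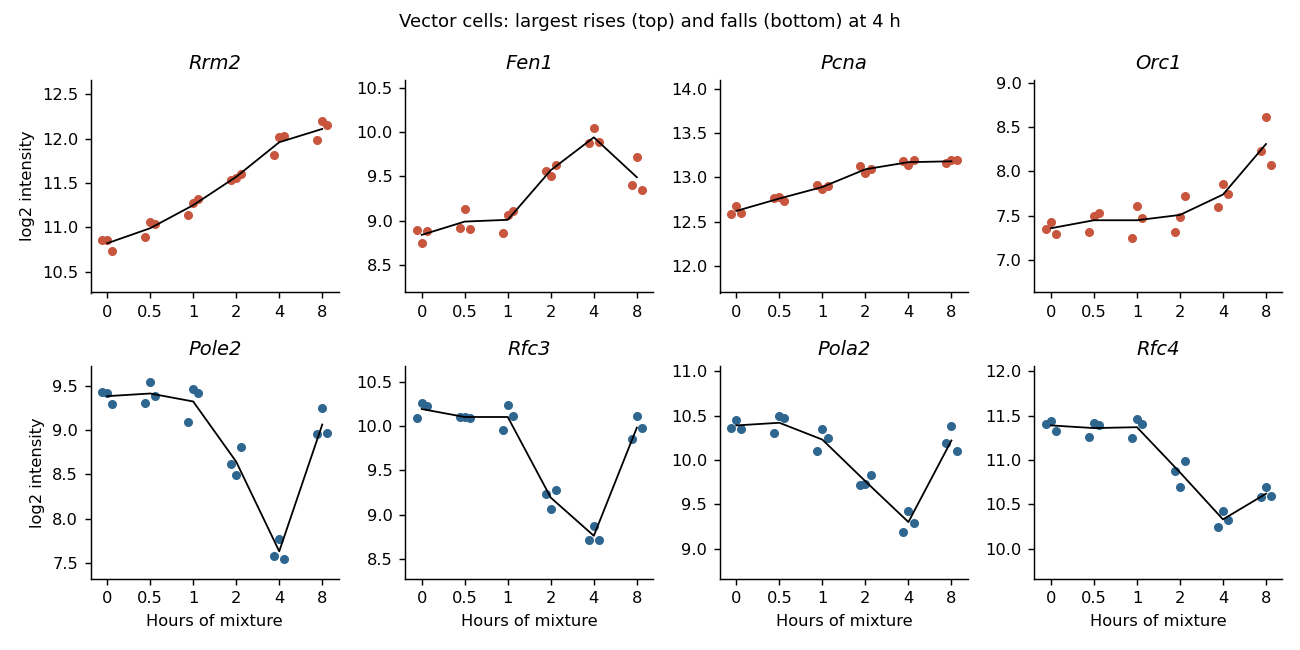
Each panel gives the log2 intensity of 1 gene on each vector array (points) and the group mean (line) by hours of mixture. Rrm2, Fen1, Pcna and Orc1 (top) are higher at 4 h than at 0 h, Pole2, Rfc3, Pola2 and Rfc4 (bottom) are lowest at 4 h, and of these Rfc4 stays well under its 0 h level at 8 h.

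Between 4 h and 8 h most of the fallen genes came back. At 8 h against 4 h, 28 genes were higher, where 13.7% of all genes were, and 1 was lower, where 10.2% were. Pole2 read 8.95, 9.25 and 8.97 at 8 h, against 7.58, 7.77 and 7.54 at 4 h, a difference of 1.43 ± 0.109 (limma adjusted p = 2.2e-10). Rfc3 was higher at 8 h by 1.22 ± 0.101, and all 6 MCM2-7 subunits by between 0.68 and 0.93. Fen1 was the gene that was lower, by -0.45 ± 0.0926. Of the 31 genes lower at 4 h than at 0 h, 25 were higher at 8 h than at 4 h, and the others were Gins2, Lig1, Pola1, Pole, Rpa3 and Tk1.

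At 8 h against 0 h, 12 genes were higher (24.2% of all genes) and 11 lower (21.9%), 23 together, where 46.1% of all genes were called. In each direction the share lay near that of all genes, and several roles held calls in both directions, such as nucleotide supply, with 3 genes higher and Tk1 lower (-0.53). The median was 0.04, against 0.07 over all genes. Of the 5 origin and licensing genes, 4 were higher. Orc1 read 8.23, 8.62 and 8.07 at 8 h, against 7.35, 7.43 and 7.30 at 0 h, a rise of 0.95 ± 0.12 (limma adjusted p = 2.43e-07), with no overlap. Cdt1 rose by 0.59, Orc6 by 0.39 and Cdc6, which works with Cdt1 to load the helicase, by 0.37.

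Mcm2, Mcm3 and Mcm7 rose by between 0.27 and 0.38 at 8 h against 0 h, and no MCM2-7 subunit was lower. Rrm2 rose by 1.29 ± 0.0753, and Dut, which removes dUTP, read 10.14, 10.51 and 10.40 at 8 h, against 9.67, 9.61 and 9.51 at 0 h, a rise of 0.75 ± 0.0857. The 8 h arrays of both genes lay above all their 0 h arrays, which was so for 27.5% of all genes. None of the 8 polymerase and primase subunits among the 42 genes was higher, and Pola1, Pole and Pole2 were lower. Counts by role at 8 h are small parts of totals that lay near the share of all genes. Differences between roles were not tested. Pola1, the catalytic subunit of polymerase alpha, read 8.34, 8.85 and 8.47 at 8 h, against 9.39, 9.49 and 9.40 at 0 h, a difference of -0.87 ± 0.115.

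Rpa3 read 9.81, 10.02 and 9.74 at 8 h, against 10.70, 10.92 and 10.78 at 0 h, and Lig1 read 8.52, 8.49 and 8.45 at 8 h, against 9.32, 9.42 and 9.34 at 0 h. The differences were -0.94 ± 0.11 for Rpa3 and -0.87 ± 0.0743 for Lig1, with no overlap in either. Of all genes, 23.4% had every 8 h array under every 0 h array. Rfc4 was lower by -0.77 ± 0.0835. Of the 31 genes lower at 4 h, 11 were still lower at 8 h than at 0 h, 5 were higher and 15 did not pass.

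Other cell cycle genes are set beside these for the same samples. Of 33 mitosis genes, 32 were lower at 2 h, 30 at 4 h and 21 at 8 h, with medians of -0.64, -0.74 and -0.38. None of the 33 was higher at those times. Of 48 further replication genes, 11 were higher and 18 lower at 4 h, and 25 were higher and 5 lower at 8 h. The differences of the 48 at 4 h ran from -1.09 to 1.98, with a median of -0.12. Top1, a topoisomerase that relieves twisting ahead of forks, was higher by 1.98 at 4 h, and Orc2 of the origin recognition complex by 1.45. In the same complex Orc3 stood lower, at a mean of 10.91 at 4 h, against 11.40 at 0 h. Orc5 also stood lower (9.52 against 9.82), and Orc4 stood at 10.32, against 10.02. Of 26 replication-dependent histone genes, which supply new chromatin in S phase, 1 was higher and 19 were lower at 8 h. The histone genes are near-identical copies, so their separate values are uncertain. Of 35 measured G1/S regulators, 5 were higher and 15 lower at 2 h, 10 higher and 17 lower at 4 h, and 15 higher and 12 lower at 8 h. The highest of them, Myc, a growth regulator upstream of G1 progression, was higher by 3.32 at 2 h, 3.19 at 4 h and 3.08 at 8 h. Of 10 preadipocyte and fibroblast markers, 6 were lower at 4 h and 8 at 8 h, and of 10 adipocyte markers 5 were lower at 4 h and 7 at 8 h. No marker of either list was higher at either time, and their part in the replication genes' values was not tested.

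The promoters of the genes that moved most at 4 h are shown because members of the group moved in opposite directions. Sequences are from RefSeq, build GRCm38.p6, and each window runs from 250 bases before to 50 bases after an annotated start, on the gene's strand. Motifs were searched on both strands. The E2F motif was met by the letters TTCCCGC, by the form TTCGCGC, by the form TTGCCGC and also by the form TTGGCGC. The CCAAT box was the letters CCAAT. The cell cycle homology region was met by the letters TTTGAA and also by the form TTCGAA, which reads alike on both strands. Matches are in capitals, and a match on the other strand appears as its reverse complement. The windows are chr12:24708004-24708303 on the plus strand for Rrm2, chr19:10203872-10204171 on the minus strand for Fen1, chr12:69228141-69228440 on the minus strand for Pole2 and chr5:151651159-151651458 on the minus strand for Rfc3.
Rrm2: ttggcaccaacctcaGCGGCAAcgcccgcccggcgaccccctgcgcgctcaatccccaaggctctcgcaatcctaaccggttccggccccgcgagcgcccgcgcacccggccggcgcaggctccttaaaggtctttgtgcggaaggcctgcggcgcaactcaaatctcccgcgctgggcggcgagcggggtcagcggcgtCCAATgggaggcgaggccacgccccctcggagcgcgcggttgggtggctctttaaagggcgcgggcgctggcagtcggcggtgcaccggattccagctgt
Fen1: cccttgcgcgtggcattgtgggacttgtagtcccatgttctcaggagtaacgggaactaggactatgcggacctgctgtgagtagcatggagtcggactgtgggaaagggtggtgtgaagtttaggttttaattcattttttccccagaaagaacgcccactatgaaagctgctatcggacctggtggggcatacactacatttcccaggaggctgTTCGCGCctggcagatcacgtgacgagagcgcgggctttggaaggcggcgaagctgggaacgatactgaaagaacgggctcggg
Pole2: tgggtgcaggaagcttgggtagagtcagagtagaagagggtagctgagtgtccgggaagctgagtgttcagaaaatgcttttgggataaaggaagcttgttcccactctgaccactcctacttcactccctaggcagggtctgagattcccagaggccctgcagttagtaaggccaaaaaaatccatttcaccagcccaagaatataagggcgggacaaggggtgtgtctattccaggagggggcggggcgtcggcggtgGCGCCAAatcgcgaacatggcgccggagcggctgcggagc
Rfc3: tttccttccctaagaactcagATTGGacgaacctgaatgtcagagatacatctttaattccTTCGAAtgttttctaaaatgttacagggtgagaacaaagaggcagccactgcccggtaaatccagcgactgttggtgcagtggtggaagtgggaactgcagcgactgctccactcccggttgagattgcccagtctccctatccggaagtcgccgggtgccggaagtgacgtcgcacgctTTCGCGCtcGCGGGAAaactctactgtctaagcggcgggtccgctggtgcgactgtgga
The Rrm2 window held 1 E2F match, 235 bases before the start, and 1 CCAAT box, 50 bases before it. The Fen1 window held 1 E2F match, 34 bases before the start, and the other Fen1 window in the table held none. The Pole2 window held 1 E2F match, 10 bases after the start. The Rfc3 window held 2 E2F matches, 1 of them 9 bases before the start and the other at it, a CCAAT box and a cell cycle homology match. No marked stretches of different motifs overlapped. E2F letters were thus found in both rising and both falling genes.

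A promoter window was found for 35 of the 42 genes. E2F letters occurred in 23 of these 35 (65.7%), where 10.9% of 27025 genes with a window had them. CCAAT occurred in 62.9% of the 35, where 41.1% of all genes had it, and both E2F letters and CCAAT in 42.9%, where 4.26% had both. The cell cycle homology letters occurred in 17.1%, where 21.7% of all genes had them. A match is a description of the letters in this window only.

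Before treatment, replication genes of every role were higher in ISL1 cells than in vector cells. All 42 were called higher, where 15.3% of all genes were and 10.4% were lower. The differences ran from 0.31 for Rfc1 to 1.47 for Prim1, with a median of 0.75, against -0.01 over all genes. The median over the 42 genes on each array, against the vector 0 h mean, was 0.77, 0.78 and 0.74 in ISL1 cells, against 0.04, 0.06 and -0.08 in vector cells. Every ISL1 array lay above every vector array in each of the 42 genes, which was so for 23.5% of all genes.

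Prim1, the catalytic subunit of primase, which lays the RNA primers, read 10.55, 10.66 and 10.72 in ISL1 cells at 0 h, against 9.09, 9.22 and 9.21 in vector cells at 0 h. It was 2.77-fold higher, by 1.47 ± 0.137 on the log2 scale (limma adjusted p = 3.92e-09). Gins1 read 9.20, 9.16 and 9.20 in ISL1 cells, against 7.90, 8.02 and 7.81 in vector cells, and was higher by 1.28 ± 0.144. The ISL1 arrays of both genes stood more than 1 log2 unit above all vector arrays.

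Tk1 read 11.17, 11.30 and 11.22 in ISL1 cells at 0 h, against 9.95, 10.12 and 9.80 in vector cells, and was higher by 1.28 ± 0.0797 (limma adjusted p = 2.17e-12). Mcm5 read 11.75, 11.70 and 11.77 in ISL1 cells, against 10.61, 10.72 and 10.40 in vector cells, and was higher by 1.16 ± 0.0907. Neither gene's groups overlapped, and a second Tk1 probe set gave 1.60. In all, 10 of the 42 genes were at least 2-fold higher, and the share of all genes at that fold is not given here. By role the median ran from 0.48 for the RPA subunits and 0.64 for both the licensing genes and the clamp and its loader to 0.92 for the MCM2-7 helicase.

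Of the 5 genes higher at 4 h, Fen1 was higher in ISL1 cells at 0 h by 0.74, Orc6 by 0.64, Orc1 by 0.54, Rrm2 by 0.52 and Pcna by 0.47, all under the median of the 42 genes. Those 5 genes were all higher at 8 h too. Of the further genes higher at 8 h, Cdt1 was higher in ISL1 cells at 0 h by 1.06, Mcm7 by 1.01 and Mcm3 by 0.95. These and Rrm1 lay above that median, and Cdc6, Mcm2 and Dut lay under it. Each value is from its own comparison, and both comparisons use the vector 0 h arrays.

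**Figure D4:**
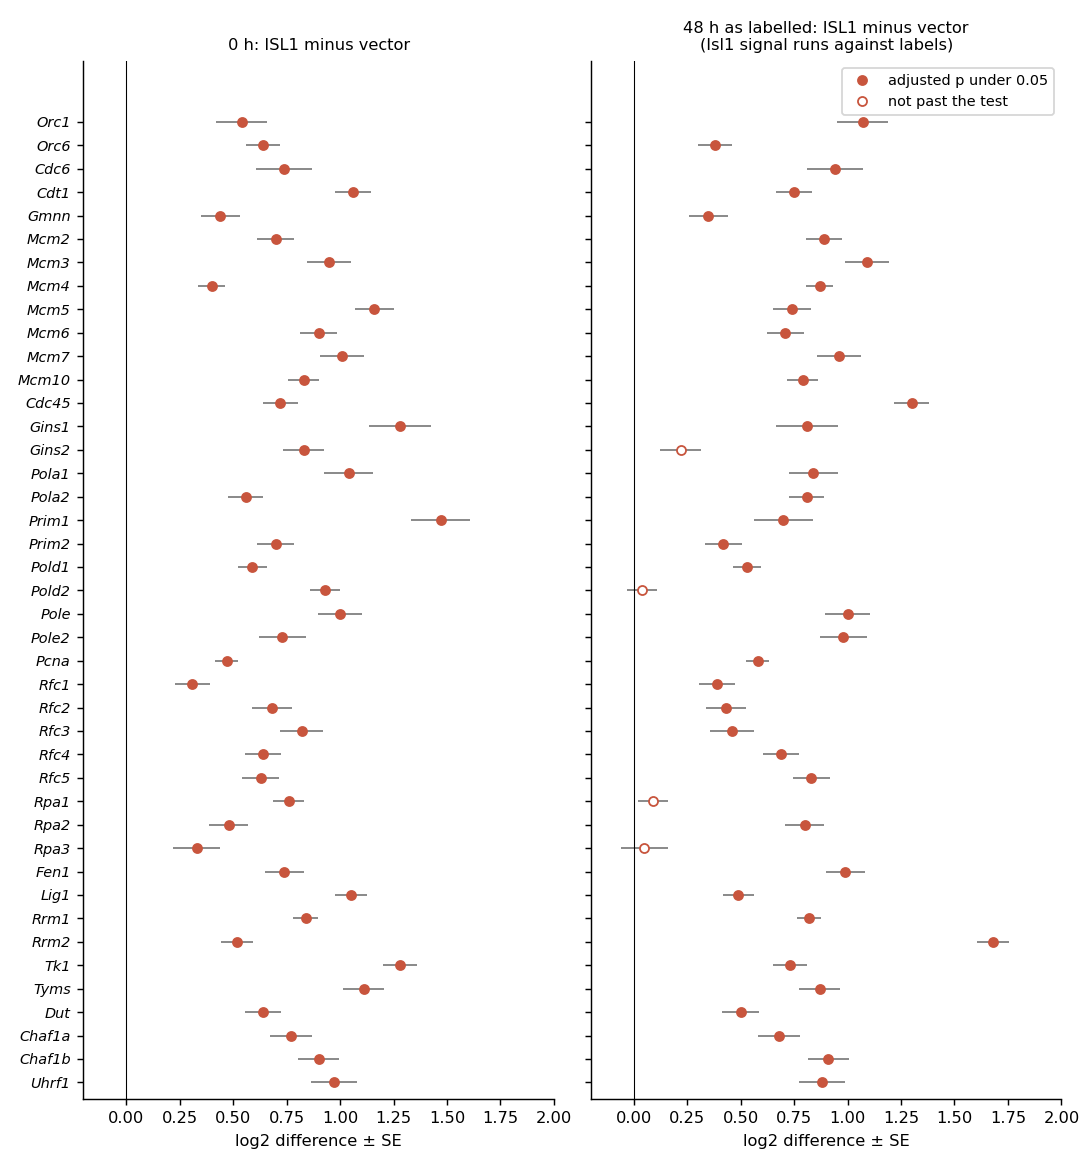
Points give the log2 difference between the groups labelled ISL1 and vector for each of the 42 genes, and bars the standard error, at 0 h (left) and at 48 h (right). Filled points passed the limma test and open points did not. All 42 genes lie above 0 at 0 h, between 0.31 and 1.47, and at 48 h, as labelled, 38 pass, with Isl1 itself opposite to the labels.

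The same arrays differed in other gene lists. In ISL1 cells at 0 h, against vector cells, 33 of 33 mitosis genes were higher, with a median of 1.22, and so were 40 of 48 further replication genes, with 1 lower, and 17 of 26 histone genes, with 2 lower. Of 10 adipocyte markers, 9 were lower in ISL1 cells at 0 h and none higher, with a median of -1.59, and the mean level of the list ran from 8.21 to 8.26 on the ISL1 arrays, against 9.99 to 10.11 on the vector arrays. Adipoq, which encodes adiponectin, was lower by -4.20 and Fabp4, a fatty acid carrier, by -3.15. Of 10 preadipocyte and fibroblast markers 7 were lower and none higher. Of 5 measured blood cell markers and 6 endothelial and epithelial markers none passed, and of 5 muscle markers 1 was lower. The part of these lists in the difference of the replication genes was not tested.

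At 48 h the replication genes were higher on the arrays labelled ISL1 than on the arrays labelled vector, where Isl1 signal ran the other way. As labelled, 38 of 42 were higher (14.0% of all genes) and none was lower (13.8%), with a median of 0.77, against 0.03 over all genes. Read by Isl1 signal, with the 48 h labels exchanged, the same 38 genes were lower on the high-Isl1 arrays. The median was then -0.77. The 4 that did not pass were Gins2, Pold2, Rpa1 and Rpa3, with differences between 0.04 and 0.22.

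Rrm2 read 12.05, 11.94 and 12.09 on the arrays labelled ISL1 at 48 h, against 10.31, 10.25 and 10.47 on the arrays labelled vector, and was higher as labelled by 1.68 ± 0.0753 (limma adjusted p = 2.41e-15). Cdc45 read 10.53, 10.31 and 10.45 on the arrays labelled ISL1, against 9.11, 9.03 and 9.25 on the arrays labelled vector, a difference of 1.30 ± 0.0817. In both genes the groups stood at least 1 log2 unit apart without overlap. As labelled, 18.2% of all genes had every ISL1 array above every vector array at 48 h.

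Mcm3 was higher by 1.09 ± 0.103 and Orc1 by 1.07 ± 0.12 on the arrays labelled ISL1 at 48 h. Exchanged labels turn each of these signs, to -1.68 for Rrm2, -1.30 for Cdc45, -1.09 for Mcm3 and -1.07 for Orc1. Of the 10 adipocyte markers, 9 were higher on the arrays labelled ISL1 at 48 h, with a mean level between 11.11 and 11.22, against 9.56 to 9.67 on the arrays labelled vector.

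The difference between the constructs was itself compared between 48 h, as labelled, and 0 h. It was larger at 48 h for 4 genes (12.7% of all genes) and smaller for 7 (16.3%), 11 together (29.0%), and 31 did not pass. As labelled, the change was 1.16 for Rrm2 and -0.89 for Pold2. With the 48 h labels exchanged it was -2.20 for Rrm2 and -0.96 for Pold2, so that their order turned, and all 41 genes called were lower. The share of all genes called for this change with the labels exchanged is not given here. Pold2 read 11.77, 11.64 and 11.74 on the arrays labelled ISL1 at 48 h, against 11.73, 11.57 and 11.75 on the arrays labelled vector, so its groups overlapped there.

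Against 0 h, the arrays labelled vector at 48 h had 4 replication genes higher (18.1% of all genes) and 19 lower (18.7%) than vector cells, 23 together (36.8%), with a median of -0.16. Pola1 read 8.52, 8.54 and 8.72 on the arrays labelled vector at 48 h, against 9.39, 9.49 and 9.40 in vector cells at 0 h, a difference of -0.83 ± 0.115. The arrays labelled ISL1 at 48 h had 3 genes higher (20.9%) and 23 lower (22.2%) than ISL1 cells at 0 h, 26 together (43.1%), with a median of -0.27. The 3 that were higher were Rrm2 (0.69), Orc1 (0.61) and Cdc45 (0.42). By label, both comparisons set arrays of high Isl1 signal against arrays of low Isl1 signal. Other lists moved with the replication genes' values, and their part in them was not tested. On the arrays labelled vector at 48 h, against vector cells at 0 h, 29 of 33 mitosis genes were lower, 9 of 10 preadipocyte and fibroblast markers were lower, and of 10 adipocyte markers 2 were higher and 4 lower. On the arrays labelled ISL1 at 48 h, against ISL1 cells at 0 h, 32 of 33 mitosis genes were lower (median -1.09), 7 of 10 preadipocyte and fibroblast markers were lower and 1 higher, and 9 of 10 adipocyte markers were higher (median 3.34).

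Paired by Isl1 signal instead of by label, the same arrays gave another picture. The arrays labelled ISL1 at 48 h, which had low Isl1, had 36 genes higher (21.3% of all genes) and none lower (20.0%) than vector cells at 0 h, with a median of 0.48. Rrm2 was higher there by 1.21, Orc1 by 1.15, Cdc45 by 1.14 and Cdt1 by 1.01. The arrays labelled vector at 48 h, which had high Isl1, had all 42 lower (19.0%) and none higher (14.2%) than ISL1 cells at 0 h, with a median of -0.92. Pola1 was lower there by -1.87 and Pole, the catalytic subunit of polymerase epsilon, by -1.83.

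Against vector cells at 8 h, the arrays labelled ISL1 at 48 h had 34 genes higher (15.7% of all genes) and none lower (14.9%), with a median of 0.55. Rfc4, still low at 8 h, read 11.82, 11.59 and 11.79 on the arrays labelled ISL1 at 48 h, against 10.58, 10.70 and 10.59 in vector cells at 8 h, a difference of 1.11. The arrays labelled vector at 48 h had 8 genes higher (17.8%) and 19 lower (18.9%) than vector cells at 8 h, 27 together (36.7%). Rrm2 was lower there by -1.77, the largest difference among the 42 genes in that comparison, and read 10.31, 10.25 and 10.47, against 11.99, 12.20 and 12.15 in vector cells at 8 h.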

How the data were processed

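The authors deposited 1 series matrix of 28853 probe sets on 27 arrays, with values on a log2 scale, and the submitters' processing notes name RMA. The log base was taken from the range of the values (3.35 to 14.85). The sources used here give no software, versions or build. The probe set of highest mean was kept for each of 19938 gene symbols. A limma 3.58.1 fit in R 4.3.3 with 1 mean per group over all arrays gave moderated two-sided tests, adjusted by Benjamini-Hochberg over all genes, and was tested on simulated data. With no statement of separate cultures beyond the word biological, p-values measure the spread between these arrays. Samples were grouped by their labels. The 42 genes and the other lists were chosen with earlier results of these data known, and the histone list was matched by a symbol pattern set after the annotation was seen. Single arrays are given for genes among the 4 called genes with the greatest rise and the 4 with the greatest fall in a comparison, provided their arrays did not overlap, with Lig1 and Rrm1 at 4 h and Pold2 at 48 h added after their values were seen, and promoters for at most 4 of them, picked after their values were seen.

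Replicate numbers were checked for pairing. Same-numbered arrays deviated together, with every correlation over 0.1, in 4 of 36 pairs of groups. Among the groups compared this held for the arrays labelled ISL1 and labelled vector at 48 h (0.314, 0.547 and 0.217), from the data and not from the labels. The alternatives were array centring, quantile normalization, a filter at 6 on the log2 scale, the mean of probe sets, a replicate block, array weights, fits of the compared groups alone, exchanged 48 h labels and leaving out each array. Leaving the 48 h arrays out of the fit was chosen after seeing the data.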

Additional observations from a re-analysis of the deposited data

Results flagged for a closer look

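As labelled, the difference between the constructs changed between 0 h and 48 h for 11 of the 42 replication genes (26.2%). Limma's test of that change called 29.0% of all genes, so the count as labelled does not stand above the background. As labelled, the difference was larger at 48 h for Rrm2 (by 1.16 on the log2 scale), Cdc45 (0.58), Orc1 (0.53) and Mcm4 (0.47). Those genes belong to nucleotide supply, helicase activation, origin recognition and the helicase. The difference as labelled was smaller at 48 h for Mcm5 (-0.42), Tk1 (-0.55), Lig1 (-0.56), Gins2 (-0.61), Rpa1 (-0.68), Prim1 (-0.76) and Pold2 (-0.89). The Isl1 probe set goes against the 48 h labels, so the labelled difference at 48 h sets low-Isl1 arrays against high-Isl1 arrays. The count of 11 holds for that labelled pairing only. With those labels exchanged the change was negative in all 11, at -2.20 for Rrm2, -2.02 for Cdc45, -1.60 for Orc1, -1.27 for Mcm4, -1.90 for Mcm5, -2.00 for Tk1, -1.55 for Lig1, -1.06 for Gins2, -0.85 for Rpa1, -2.17 for Prim1 and -0.96 for Pold2. The Orc1 call was lost without replicate 3 of the arrays labelled ISL1 at 48 h (0.47, limma adjusted p = 0.0531) and without replicate 2 of those labelled vector at 48 h (0.45, limma adjusted p = 0.0616).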

How the results depend on the processing

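With the 48 h labels exchanged, the counts of replication genes past the limma test and their directions changed. The count was 36 for vector at 48 h against vector at 0 h (median 0.48, Pola1 0.00, Pole 0.17, Pole2 0.32, Mcm4 0.23), 42 for ISL1 at 48 h against ISL1 at 0 h (Rrm2 -0.99, Orc1 -0.46, Cdc45 -0.89) and 34 for vector at 48 h against vector at 8 h (median 0.55, Orc1 0.20, Fen1 0.16). It was 27 for ISL1 at 48 h against vector at 8 h (median -0.22, Cdc45 -0.28), 23 for ISL1 at 48 h against vector at 0 h (median -0.16, Rrm2 -0.47, Cdc45 -0.17) and 26 for vector at 48 h against ISL1 at 0 h. Between the constructs at 48 h all 38 calls turned lower (median -0.77, Rrm2 -1.68, Cdc45 -1.30, Mcm3 -1.09, Orc1 -1.07), and the change of the difference was called for 41 genes (Rrm2 -2.20, Cdc45 -2.02, Orc1 -1.60, Mcm4 -1.27). This follows from the exchange itself, and the share of all genes beside the count of 41 is not given here. With array weights, estimated gene by gene, 6 genes passed at 1 h instead of 3, and the cause was not tested. Under every other alternative run the counts stayed within 1.5 times, and no named gene reversed. The median over the 42 genes moved by more than the spread between arrays, with no change of sign, to 0.10 at 8 h with median centring, 0.70 for ISL1 at 0 h with quantile normalization and -0.21 for ISL1 at 48 h against ISL1 at 0 h with array weights. Leaving out 1 array moved it to 0.80 for ISL1 at 0 h (without vector 0 h replicate 2), -0.01 for the change of the difference (without vector 0 h replicate 3), 0.48 for ISL1 at 48 h against vector at 8 h (without replicate 1 labelled ISL1 at 48 h) and -0.20 for ISL1 at 48 h against ISL1 at 0 h (without replicate 2 labelled ISL1 at 48 h). Leaving out each array gave 3 to 4 genes at 1 h, 23 to 29 at 2 h, 34 to 35 at 4 h, 19 to 25 at 8 h, 41 to 42 for ISL1 at 0 h and 38 to 39 at 48 h as labelled. Of the values of named genes in those fits, 575 kept and 13 lost their call, all of Orc1, Cdt1, Rpa1, Orc6 or Pold2, and Orc1 at 4 h lost its call without replicate 2 at 4 h (0.31, limma adjusted p = 0.0718). The other losses were of Orc1 in the change of the difference with quantile normalization (limma adjusted p = 0.0601) and of Pcna at 1 h.

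With the replicate number as a block, 38 genes passed between the arrays labelled ISL1 and labelled vector at 48 h, 36 at 4 h and 30 at 8 h against 4 h, and the pairing changed no named call. No detection calls were used here, so a gene of low intensity has no stated distance from background, and the 3 arrays of a group limit what small differences show.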
